A study of Mus musculus with 4 samples.

Results

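The genes described here are 10 keratins of the epidermis, chosen by name, out of 53 protein-coding keratin genes and 21921 protein-coding genes in the tables. Of the 10, 3 are grouped as basal (Krt5, Krt14 and Krt15) and 7 as suprabasal (Krt1, Krt10, Krt2, Krt77, Krt78, Krt79 and Krt80). They were measured by total RNA sequencing of the epidermis of C57BL/6 pups on the day of birth (P0), with 2 pups in each of 2 groups. Skiv2l fl/fl K14-Cre pups carry loxP-flanked alleles of Skiv2l, a helicase that feeds RNA to the cytoplasmic RNA exosome, and a constitutive Cre driven by the K14 promoter. That promoter is part of a transgene (KRT14-cre) and not of the Krt14 gene described here. Skiv2l ctl pups are littermates, and in the study the name covers Skiv2l fl/fl and Skiv2l fl/+ pups as well as Skiv2l fl/+ K14-Cre pups. Which of these genotypes each of the 2 control pups had is not given in the sources used here, so whether a control carried the Cre is unknown.

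Keratins are the intermediate filament proteins of epithelial cells. Each filament is built from pairs of one type I (acidic) and one type II (basic) keratin, so the 2 types are made together. Dividing cells of the basal layer make keratin 5 with keratin 14, and keratin 15 as a further type I partner. A cell that leaves the basal layer switches to keratin 1 with keratin 10, and later adds minor type II keratins of the upper layers. Wounded and hyperplastic epidermis adds keratins 6, 16 and 17, here called the wound-associated keratins. In the mouse most type I genes, among them Krt14, Krt15 and Krt10, lie in one cluster on chromosome 11, and the type II genes lie in a cluster on chromosome 15.

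Keratin genes arose by duplication and resemble each other, so sequence that a short read could not assign comes before the values. The longest identical run of Krt14 and its neighbour Krt16 is 134 bases of coding exon 1 (GRCm38, minus strand, chr11:100207017-100207150 in Krt14 and chr11:100248476-100248609 in Krt16), shown whole because every base is shared:
Krt14 and Krt16: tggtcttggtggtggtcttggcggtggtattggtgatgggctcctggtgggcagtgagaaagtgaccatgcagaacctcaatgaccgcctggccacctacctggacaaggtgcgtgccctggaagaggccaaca
This run is longer than 75 bases, the stretch length used here to compare transcripts.

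A window of 71 coding bases in exon 6 shows how far the type I members differ from Krt14 and from the wound-associated type I keratins. Capitals mark the bases that differ from Krt14 (chr11:100204114-100204184, minus strand).
Krt14: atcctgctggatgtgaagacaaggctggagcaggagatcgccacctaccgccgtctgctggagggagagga
Krt17: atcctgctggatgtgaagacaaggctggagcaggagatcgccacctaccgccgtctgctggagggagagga
Krt16: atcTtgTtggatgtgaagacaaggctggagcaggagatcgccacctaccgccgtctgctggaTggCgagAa
Krt15: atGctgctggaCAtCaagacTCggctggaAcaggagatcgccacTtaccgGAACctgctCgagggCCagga
Krt10: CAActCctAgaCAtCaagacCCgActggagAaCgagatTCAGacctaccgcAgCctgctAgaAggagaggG
Krt17 was identical to Krt14 over all 71 bases, the longest run the pair shares, and Krt16 matched at 66 of them. The basal member Krt15 matched at 56 bases and the suprabasal member Krt10 at 49.

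Over whole transcripts, the 75-base stretches that a member shares with any other gene were few. They made up 7.77% for Krt5, of which 4.71% were shared with Krt6a, and 5.71% for Krt14, all of them with Krt16. For Krt80 (1.94%) and Krt10 (0.947%) they lay in antisense genes that overlap them. Krt15, Krt1, Krt2, Krt77, Krt78 and Krt79 shared none.

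The labels held for the targeted gene. Skiv2l was at 19.3 and 19.1 FPKM, a measure of reads per length of transcript and per depth of library, in Skiv2l ctl pups (control pups below). It was at 10.8 and 8.55 FPKM in Skiv2l fl/fl K14-Cre pups (knockout pups below), a log2 fold change of -0.92 (limma adjusted p = 0.00368). Of the defining markers of other cells, those of adipocytes, muscle, endothelium and neutrophils summed to under 1 FPKM in every library, and Adipoq, Cidec and Ly6g were at 0. Markers of dermal fibroblasts summed to 61.3 and 69.0 FPKM in control pups and 21.9 and 25.0 in knockout pups, with Dcn as most of the sum and 2 of 5 tested markers called lower. Those of leukocytes went from 25.4 and 36.2 to 15.0 and 13.2, with 3 of 5 tested markers called lower and the Langerhans cell marker Cd207 at or near 0. Those of erythroid cells went from 80.6 and 74.6 to 37.5 and 47.7, with 2 of 3 called lower. Merkel cell markers went from 2.64 and 2.74 to 1.05 and 1.52, with 0 of 4 called by limma and 2 at an unadjusted p under 0.05, while melanocyte markers (52.9, 59.6, 55.5 and 69.5, with 1 of 6 called higher, Tyrp1) and Schwann cell markers (8.13, 6.73, 6.72 and 7.24) overlapped between the groups. The part of these cells in the keratin values below was not tested.

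Of the 10 keratins, 3 rose in Skiv2l fl/fl K14-Cre epidermis (Krt14, Krt78 and Krt80), 4 fell (Krt15, Krt1, Krt77 and Krt79), 2 did not pass the test (Krt5 and Krt10) and 1, Krt2, was too low to be tested. The test was limma on log2(FPKM + 1), with p-values adjusted over all 13609 tested protein-coding genes and called under 0.05. Over all tested genes 8.99% were called higher and 25.4% lower, together 34.4%. Both knockouts lay above both controls for 3 of the 9 tested members and below both for 6, against 18.2% and 55.3% of all tested genes, together 73.5%. The median log2 fold change was -0.44 over the 9 tested members and -0.20 over all tested genes, so a member at -0.20 had moved no more than the middle gene. With 2 pups a group, limma drew the variance of a gene partly from a trend over all tested genes. The p-values therefore do not measure the spread between these 4 animals alone. An exact permutation test of one gene could not go below 0.333. In whole epidermis, fewer cells that make a keratin and less of its RNA per cell cannot be told apart.

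**Figure D1:**
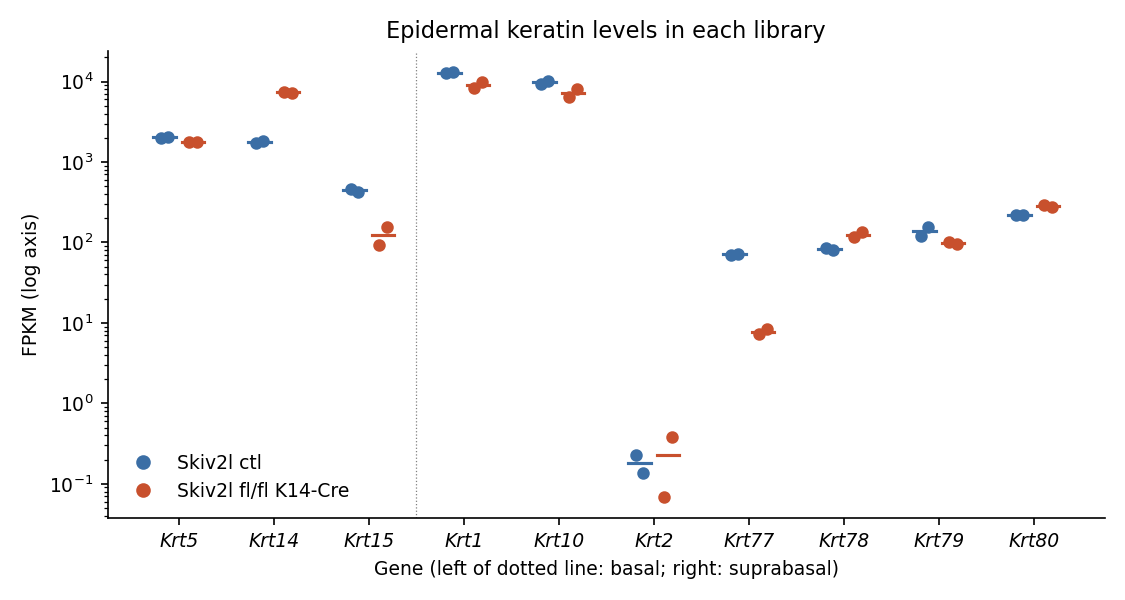
FPKM (log axis) of the 10 keratins in each library, with the 2 Skiv2l ctl libraries in blue, the 2 Skiv2l fl/fl K14-Cre libraries in orange and group means as bars; basal genes stand left of the dotted line. Krt14 (1736 and 1812 against 7381 and 7312) rose, and Krt15 and Krt77 fell, while Krt2 stayed under 0.5 FPKM throughout.

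The levels of the 3 basal keratins in whole epidermis moved apart, and the layer their RNA came from was not measured. By staining, the study reported an expansion of keratinocytes with K14, K5 and K10 in such pups, a protein measure in sections. From its RNA sequencing it also reported keratinization-related genes among those enriched in the knockout. By qRT-PCR of further mice it reported dysregulated expression. Krt14 (ENSMUSG00000045545.8, chr11:100203162-100207548), the type I keratin of basal cells, was at 1736 and 1812 FPKM in control pups against 7381 and 7312 in knockout pups. The knockouts lay far above the controls and close to each other, with means of 1774 ± 53.7 and 7347 ± 48.5 (SD, n = 2). The ratio of means was 4.14, and the log2 fold change was 2.05 (95% interval 1.79 to 2.31, limma adjusted p = 0.000171). Among all tested genes Krt14 ranked 9 by FPKM in both control pups and 3 and 4 in knockout pups. It stayed called whichever library was left out.

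Krt5 (ENSMUSG00000061527.7, chr15:101707070-101712898), the type II partner of Krt14, did not rise with it. It was at 2003 and 2075 FPKM in control pups and at 1761 and 1759 in knockout pups. Both knockouts were slightly lower, and the difference did not pass the test (log2 fold change -0.21, 95% interval -0.44 to 0.02, limma adjusted p = 0.130). The estimate is close to the shift of the middle gene, and scaling the libraries to a common median moved it to 0.0011. Quantile normalization, which forces one distribution on all libraries, moved it to -1.16 (limma adjusted p = 0.000213), and on TPM it was -0.26 (0.0464). The interval ends far below the change of Krt14.

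Krt15 (ENSMUSG00000054146.8, chr11:100131758-100135928), a type I keratin of quiescent basal cells and of the hair follicle bulge, moved against Krt14. Its levels were 462 and 428 FPKM in control pups and 92.1 and 155 in knockout pups. The groups did not overlap, although the knockouts differed from each other more than the controls did. The ratio of control to knockout means was 3.60 and the log2 fold change -1.89 ± 0.23 (SE, limma adjusted p = 0.00258), and the call was kept without each library in turn. Krt15 ranked 69 and 78 among tested genes in control pups and 476 and 257 in knockout pups.

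The reads that Krt14 and Krt5 could exchange with wound-associated keratins give a scale for these values. The scale rests on 75-base stretches and so leaves out Krt17, whose longest run shared with Krt14 is 71 bases. Krt16 went from 338 and 359 FPKM to 5434 and 5680 (log2 fold change 3.99, limma adjusted p = 1.34e-05), and 6.44% of its 75-base stretches lie in Krt14. That share of the mean Krt16 level amounts to 22.4 FPKM in control pups and 358 in knockout pups, beside a rise of 5573 in Krt14. The level of Krt16 is itself uncertain, since 28.9% of its stretches occur in other genes. Krt6a went from 59.1 and 98.7 to 5247 and 5589 (log2 fold change 6.13), and 4.14% of its stretches lie in Krt5. That share amounts to 3.27 FPKM in control pups and 224 in knockout pups, and the share of Krt6b (0.925% of its stretches) to 1.33 and 72.4. The mean of Krt5 was 2039 FPKM in control pups and 1760 in knockout pups, a difference of the same order as these shares. How shared reads were divided among these genes is not given in the sources used here, and its part in the values was not tested.

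Among the suprabasal keratins, Krt1 passed the test as lower and its partner Krt10 did not pass, while of the minor keratins 2 fell and 2 rose. Krt1 (ENSMUSG00000046834.7, chr15:101845426-101850794), the type II keratin of spinous cells, had the highest FPKM of all tested genes in each of the 4 libraries. Coverage, a second signal of the libraries, gives it a lower standing. Relative to the most frequent value of a library, coverage per FPKM was 0.56 for Krt1 and 0.99 for Krt10. It was also low for Krt79 and Krt80, so the order, sums and ratios below hold for FPKM and can differ on coverage. Krt1 was at 12721 and 13157 FPKM in control pups and at 8246 and 9975 in knockout pups. Both knockouts were below both controls by less than the changes of Krt14 or Krt15. The log2 fold change was -0.51 (95% interval -0.87 to -0.15, limma adjusted p = 0.0401), and 0 under quantile normalization, which fixes the value of the top gene. Leaving out any one of the 4 libraries ended the call, with limma adjusted p between 0.107 and 0.292, as did coverage in place of FPKM (0.128) and median scaling (log2 fold change -0.30, 0.177).

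Krt10 (ENSMUSG00000019761.10, chr11:99385254-99389364), the type I partner of Krt1, was at 9268 and 10220 FPKM in control pups and at 6378 and 8081 in knockout pups. The groups did not overlap, and the second library of each group was the higher one. The log2 fold change of -0.44 did not pass the test (95% interval -0.82 to -0.05, limma adjusted p = 0.0760). It passed in 3 of 14 alternatives, each time in the same direction. These were the replicate number as a block (0.00895), TPM (0.0296) and quantile normalization (0.0019). Quantile normalization sets a value by rank, and Krt10 ranked 2 in both control pups and 4 and 3 in knockout pups. With median scaling the log2 fold change was -0.23 (limma adjusted p = 0.328) and on coverage -0.44 (0.226). Without each library in turn it was -0.61 to -0.27. An antisense gene inside Krt10, Gm11940 (chr11:99387340-99387897, plus strand), also went down, from 72.8 and 64.3 FPKM to 30.5 and 20.9. Whether the counting used strand is not given in the sources used here, so its reads and those of Krt10 cannot be told apart.

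Krt77 (ENSMUSG00000067594.6, chr15:101858731-101869705), a minor type II keratin of suprabasal cells, fell furthest of the members. It was at 70.8 and 71.2 FPKM in control pups and at 7.23 and 8.37 in knockout pups. Replicates were close in both groups and the groups lay far apart. The ratio of control to knockout means was 9.11, and the log2 fold change was -3.04 ± 0.10 (SE, limma adjusted p = 3.12e-05). Krt77 was the member that stayed called lower under all 14 alternatives, and its rank among tested genes went from 649 and 646 to 6584 and 6006. Without the filter on low values, with all 21921 protein-coding genes in the fit, it was the one member called (limma adjusted p = 0.0283, against 0.0856 for Krt15 and 0.460 for Krt14).

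The neighbours Krt78 and Krt79, whose genes lie 5.7 kb apart, went in opposite directions. Krt78 (ENSMUSG00000050463.9, chr15:101946001-101954287), a type II keratin of suprabasal cells, was at 84.8 and 81.1 FPKM in control pups and at 115 and 134 in knockout pups (log2 fold change 0.58 ± 0.10 SE, limma adjusted p = 0.0082). The knockouts were 1.51-fold higher in the mean. The call was lost without the first control library (0.0668) and without the second (0.0808).

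Krt79 (ENSMUSG00000061397.8, chr15:101929332-101940324), a type II keratin of the cells lining the hair canal and sebaceous duct, was at 120 and 158 FPKM in control pups and at 103 and 95.2 in knockout pups. The controls differed from each other by more than the lower control differed from the knockouts. The log2 fold change of -0.47 passed narrowly (SE 0.14, limma adjusted p = 0.0437). The call was lost without the second control (-0.28, 0.176), without the first knockout (0.0819) and without the second (0.142), and also with coverage in place of FPKM (0.0682), without the intensity trend (0.0681) and with median scaling (-0.26, 0.189).

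Krt80 (ENSMUSG00000037185.9, chr15:101347444-101370162), a type II keratin of advanced differentiation found near desmosomes, was at 217 and 219 FPKM in control pups and at 293 and 272 in knockout pups. It was 1.29-fold higher in the mean, with no overlap (log2 fold change 0.37 ± 0.08 SE, limma adjusted p = 0.0191). The call was lost without the first control (0.117), the second control (0.110) or the first knockout (0.0551), and under quantile normalization (0.0553). The antisense gene Gm35853 that overlaps it was at 17.1 and 14.8 FPKM in control pups and at 19.1 and 13.9 in knockout pups.

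Krt2 (ENSMUSG00000064201.8, chr15:101810689-101818169), a type II keratin of the upper suprabasal layers that in the mouse is made mostly in ear, sole and tail skin, was near 0. It was at 0.226 and 0.135 FPKM in control pups and at 0.0694 and 0.382 in knockout pups. The groups overlapped, and no library reached the 0.5 FPKM needed for testing.

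**Figure D2:**
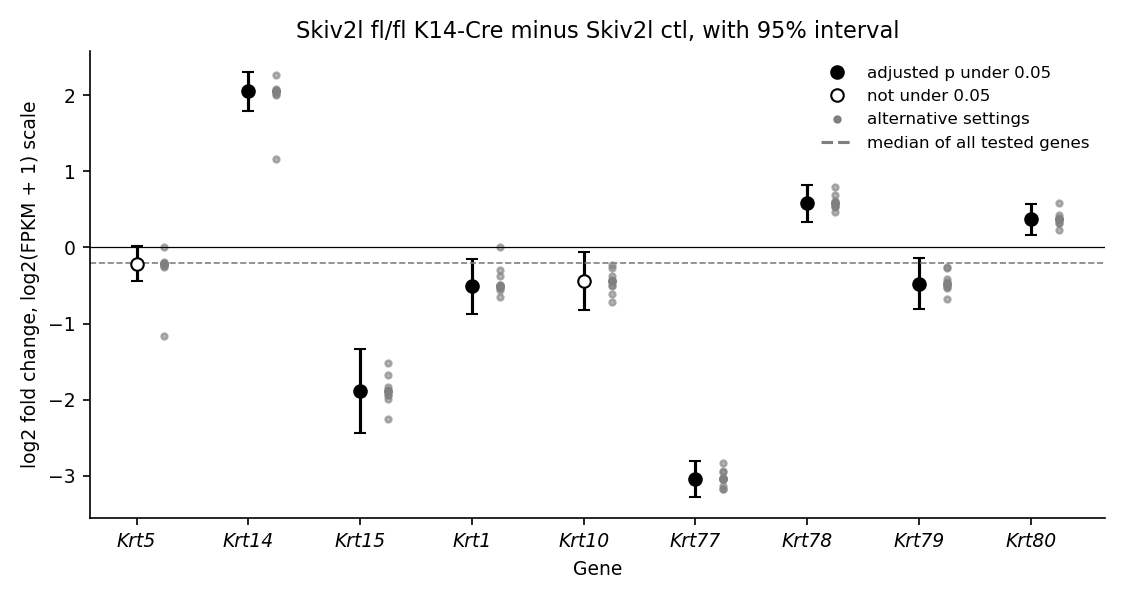
Log2 fold change on the log2(FPKM + 1) scale of the 9 tested members, Skiv2l fl/fl K14-Cre minus Skiv2l ctl, with 95% intervals; filled points passed limma's adjusted p under 0.05, small grey points are the alternative settings and the dashed line is the median of all tested genes (-0.20). Over the settings shown Krt14 stays at 1.17 or above, Krt15 at -1.51 or below and Krt77 at -2.84 or below, while Krt5 and Krt1 reach 0 under median scaling and quantile normalization respectively.

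The order of FPKM within the epidermis changed with these shifts. The order on coverage, which is low per FPKM for Krt1, Krt79 and Krt80, can differ. In control pups the order by FPKM was Krt1, Krt10, Krt5, Krt14, Krt15, Krt80, Krt79, Krt78, Krt77 and Krt2. No neighbours in this order overlapped in their 2 values. In knockout pups it was Krt1, Krt14, Krt10, Krt5, Krt80, Krt78, Krt15, Krt79, Krt77 and Krt2. There the ranges of Krt14 and Krt10, of Krt78 and Krt15, and of Krt15 and Krt79 overlapped.

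Ratios of keratins within one library do not depend on how libraries were scaled to each other. Krt14 stood at 0.866 and 0.873 times its partner Krt5 in control pups and at 4.19 and 4.16 times in knockout pups, a 4.80-fold shift. The other partners kept their ratio, with Krt10 at 0.729 and 0.777 times Krt1 in control pups and at 0.773 and 0.810 in knockout pups, and the groups overlapped. The basal pair thus moved apart in each knockout library while the values of the suprabasal pair lay in overlapping ranges.

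Of the ratios across layers and between minor and major keratins, that of Krt2 to Krt1 overlapped between the groups and the 4 others did not. Krt10 was at 5.34 and 5.64 times Krt14 in control pups and at 0.864 and 1.11 times in knockout pups. Krt1 was at 6.35 and 6.34 times Krt5 in control pups and at 4.68 and 5.67 in knockout pups, a smaller shift in which the knockouts differed from each other. The ratio of Krt15 to Krt14, both type I keratins of basal cells, went from 0.266 and 0.236 to 0.0125 and 0.0212, 14.9-fold lower. The ratio of Krt77 to Krt1, type II keratins whose genes lie 7.9 kb apart, went from 0.00557 and 0.00541 to 0.000877 and 0.000839, 6.40-fold lower. The fall of Krt77 therefore exceeded that of Krt1 in each knockout library.

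**Figure D3:**
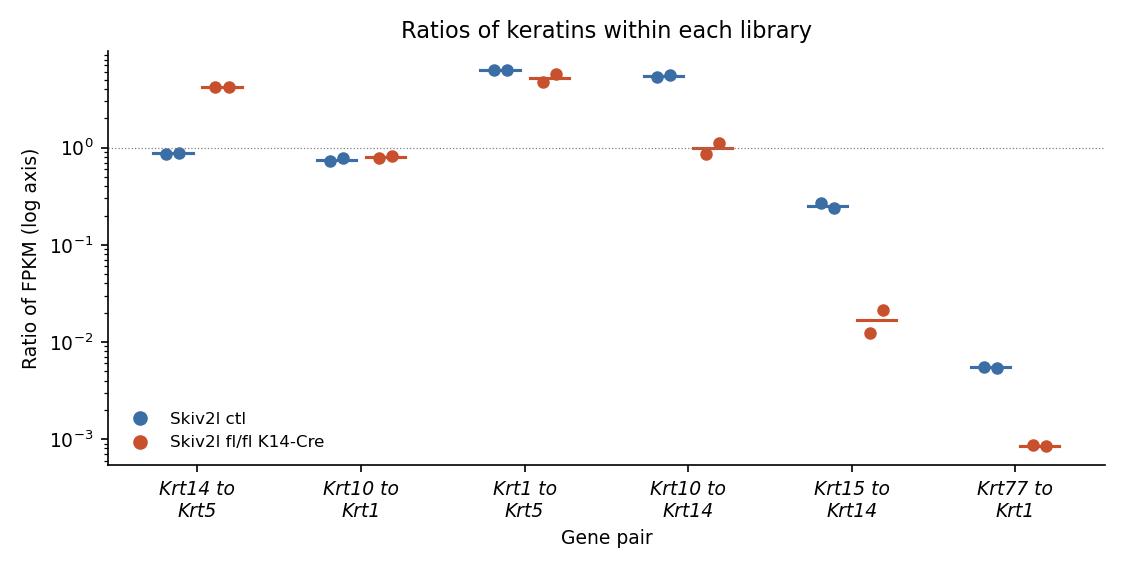
Ratio of FPKM of 2 keratins within each library (log axis), Skiv2l ctl in blue and Skiv2l fl/fl K14-Cre in orange, with group means as bars. The Krt14 to Krt5 ratio went from 0.866 and 0.873 to 4.19 and 4.16, and the Krt10 to Krt1 ratio overlapped between the groups.

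Summed over the basal members, FPKM went from 4201 and 4315 in control pups to 9234 and 9226 in knockout pups, 2.17-fold higher. Krt14 made up most of the sum in knockout pups. The suprabasal members summed to 22482 and 23907 in control pups and to 15142 and 18567 in knockout pups. The suprabasal sum was 5.35 and 5.54 times the basal sum in control pups and 1.64 and 2.01 times in knockout pups. The 10 members summed to 26683 and 28221 FPKM against 24376 and 27793, which overlapped. As a share of protein-coding FPKM the sum did not overlap, at 8.21% and 8.50% in control pups against 7.13% and 8.07% in knockout pups.

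The share of the members in all keratin RNA changed more than their sum, because other keratins were added. The 10 members made up 95.6% and 95.3% of the summed keratin FPKM in control pups and 55.1% and 57.2% in knockout pups. The wound-associated keratins Krt6a, Krt6b, Krt16 and Krt17 went from 3.62% and 3.87% to 44.6% and 42.5%. Of the 75-base stretches of Krt6a, 51.1% occur in other genes, and of those of Krt6b 39.6%, mostly in each other. Of those of Krt16, 28.9% occur in other genes. Of those of Krt17 none do at this length, although it shares a run of 71 bases with Krt14. The levels of Krt6a, Krt6b and Krt16 are therefore uncertain. The sum over all 53 keratins was 27897 and 29598 FPKM in control pups and 44244 and 48582 in knockout pups, 1.61-fold higher. Krt14 was the only one of Krt1, Krt10, Krt5, Krt14 and Krt15 with a larger share of keratin FPKM in knockout pups, from 6.22% and 6.12% to 16.7% and 15.1%.

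**Figure D4:**
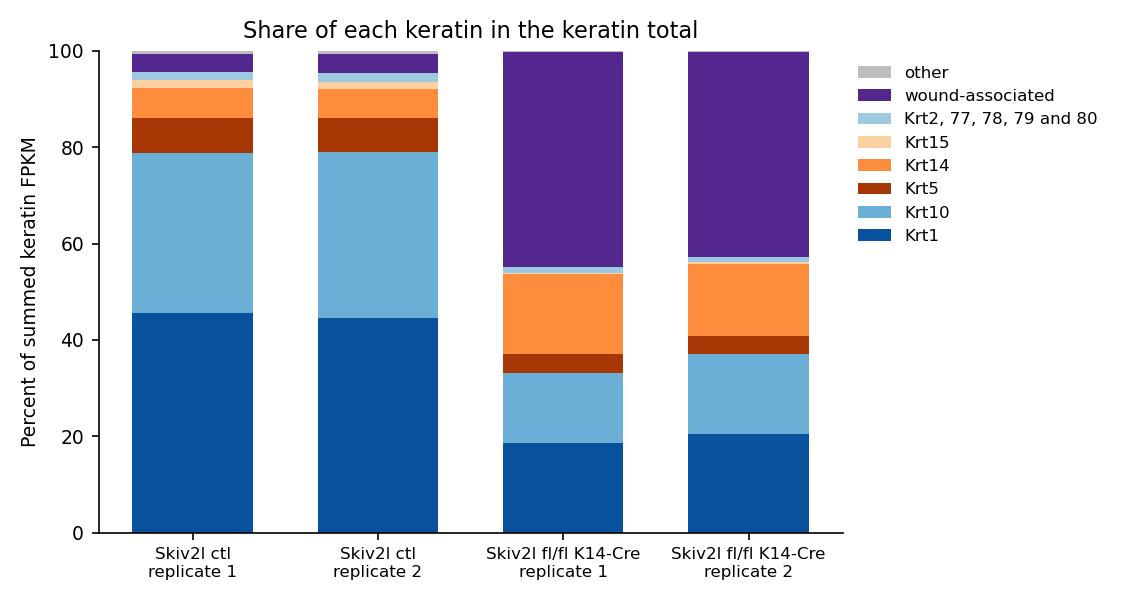
Percent of the summed FPKM of all 53 keratin genes in each library, stacked by keratin. The 10 members fill 95.6% and 95.3% of the bar in Skiv2l ctl pups and 55.1% and 57.2% in Skiv2l fl/fl K14-Cre pups, with wound-associated keratins at 44.6% and 42.5% of the latter.

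The ratio of type I to type II FPKM shifted less over the whole family than among the members, and neither ratio overlapped between the groups. Summed over all keratins, type I FPKM was 0.809 and 0.840 times type II in control pups and 0.891 and 0.870 times in knockout pups. Among the members alone it was 0.753 and 0.790 in control pups and 1.32 and 1.27 in knockout pups. The members' type I sum is Krt14, Krt15 and Krt10, and the type II sum is the other 7. The whole-family sums include Krt6a, Krt6b and Krt16, whose levels are uncertain. Both ratios hold for FPKM and can differ on coverage.

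Of the 43 other keratin genes 37 were tested, of which 10 rose and 10 fell. Over all tested genes 8.99% were called higher and 25.4% lower. All 4 wound-associated keratins rose, Krt6b from 116 and 171 FPKM to 7566 and 8089 and Krt17 from 498 and 519 to 1481 and 1301. Of 6 simple epithelial keratins 1 fell, Krt23, from 140 and 115 to 57.2 and 50.9. Of 3 mucosal keratins 1 rose, Krt76, and of 24 tested hair, root sheath and other keratins 5 rose and 9 fell. The number of these 24 that fell was 5 under quantile normalization, 6 under median scaling and 11 on TPM, with 5 higher each time.

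Direct neighbours in the clusters shared a member's direction in some cases and not in others. Next to Krt14 lies Krt16 (38.5 kb away), which also rose, and next to Krt5, which was not called, lies Krt6a (12.8 kb), which rose. Krt77 lies between Krt1 (7.9 kb), which also fell, and Krt76 (14.6 kb), a keratin of palate epithelium that rose from 0.788 and 0.900 FPKM to 6.08 and 5.77 (log2 fold change 1.91, limma adjusted p = 0.000343). Next to Krt10 lies Krt12 (26.3 kb), a cornea keratin that fell from 9.01 and 6.18 FPKM to 0.256 and 0.165 (log2 fold change -2.81, limma adjusted p = 0.000369). Krt13 and Krt19 beside Krt15, Krt71 beside Krt5, Krt28 beside Krt10, Krt73 beside Krt2, Krt4 beside Krt79 and Krt8 beside Krt78 were tested and not called. Krt7 beside Krt80 was not called either (log2 fold change 0.37, limma adjusted p = 0.0988). It was at 5.30 and 5.75 FPKM in control pups and at 6.42 and 8.58 in knockout pups, in the direction of Krt80.

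Other genes of the basal layer changed less than Krt14 and Krt15. Of 18 basal partner genes (integrins, hemidesmosome and laminin-332 genes, Trp63 and other basal markers) 7 rose and 3 fell. Their median log2 fold change was 0.02. Calls over all tested genes stood at 8.99% higher and 25.4% lower, with a median of -0.20. Bcam, a laminin receptor, was at 124 and 135 FPKM in control pups and at 64.4 and 62.9 in knockout pups (log2 fold change -1.01, limma adjusted p = 0.000778). The laminin receptor subunit Itga3 rose (0.98) and the hemidesmosome integrin Itgb4 rose (0.60), while Postn (-0.93) and Lgr6 (-0.75) fell. Trp63, which encodes the master regulator of stratified epithelia, and Col17a1 of the hemidesmosome were not called, at -0.08 and -0.07. Under median scaling 8 rose and 3 fell, and under quantile normalization 6 and 3.

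Genes listed as partners of the suprabasal keratins also went both ways. The list includes desmosome, cornified envelope, transglutaminase and protease genes, and the layer their RNA came from was not measured. Of 28 suprabasal partner genes 10 rose, 3 fell and 15 were not called, with a median of 0.06. Among all tested genes, 8.99% rose and 25.4% fell. The desmosomal cadherin Dsg1b rose from 167 and 182 FPKM to 385 and 394 (log2 fold change 1.16, limma adjusted p = 0.000538). The transglutaminase Tgm5 (1.07) and the protease Klk7 (0.76) rose as well. Those that fell were Flg2 (-1.44), the cornified envelope protein loricrin, Lor (-0.92), and the caspase Casp14 (-0.56). The direction of this list depends on scaling, since 9 rose and 10 fell under quantile normalization, with a median of -0.19.

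Of 34 transcription factor genes of the keratin and differentiation program 33 were tested, of which 7 rose and 7 fell, with a median log2 fold change of -0.08. Calls over all tested genes were not even, at 8.99% higher and 25.4% lower. The ETS factors Ehf (from 7.59 and 7.92 to 39.2 and 45.2 FPKM, log2 fold change 2.30) and Elf3 (1.66) rose, as did Hopx (1.44). Pou2f3, a POU factor of suprabasal cells (-1.24), and Tfap2b, of the AP-2 family (-1.22), fell. Klf4 and Grhl1 were not called. Under median scaling 9 rose and 4 fell, with a median of 0.13.

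**Figure D5:**
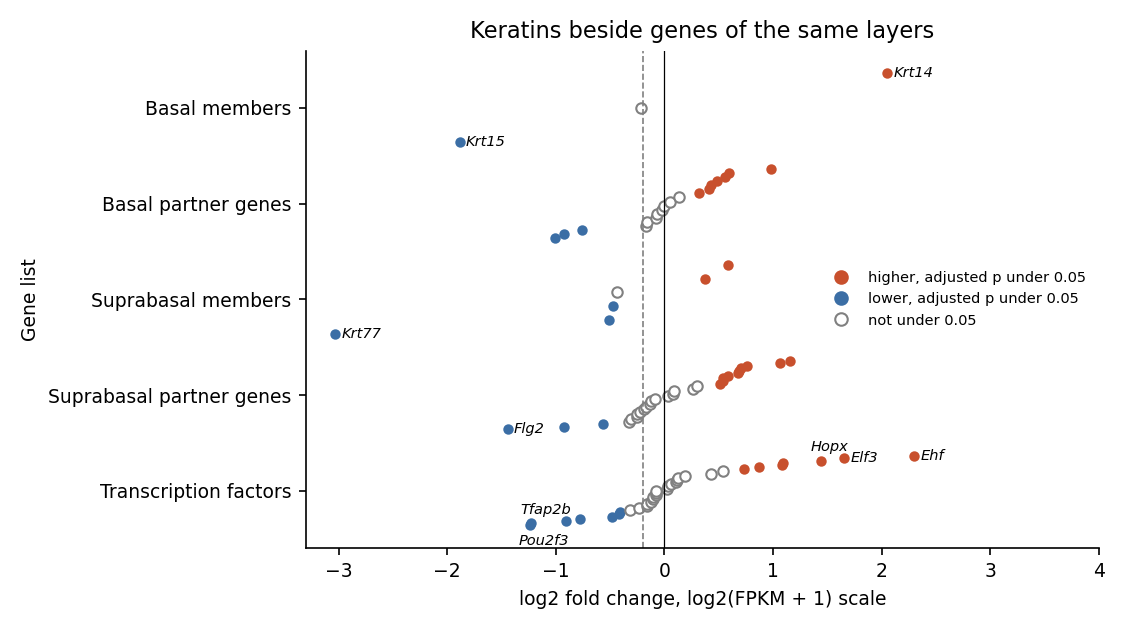
Log2 fold change on the log2(FPKM + 1) scale of the tested basal and suprabasal members and of the basal partner, suprabasal partner and transcription factor genes, one point per gene, spread vertically within a list; orange and blue points passed limma's adjusted p under 0.05 and the dashed line is the median of all tested genes (-0.20). Krt14 (2.05), Krt15 (-1.89) and Krt77 (-3.04) lie beyond every gene of the 2 partner lists.

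Tested genes outside the keratin family with the pattern over the 4 libraries most like that of Krt14, by Euclidean distance of centred log2(FPKM + 1), were Gfpt2 (0.0223), Duoxa1 (0.0746) and Sprr2j-ps (0.0988). Duoxa1 was at 5.16 and 5.10 FPKM in control pups and at 25.5 and 25.2 in knockout pups, while Gfpt2 and Sprr2j-ps were below 1 FPKM in control pups. Those most like Krt77 were Dapl1 (0.221), Tesc (0.429) and Cyp2f2 (0.495). Dapl1 was at 53.1 and 53.2 FPKM in control pups and at 6.20 and 5.66 in knockout pups, close to Krt77 in level as well. With 4 libraries in 2 groups, likeness says mainly that the group difference and the spread on the log2(FPKM + 1) scale were alike. For low genes this scale understates the fold change, so their ratios of FPKM can be larger than those of the keratins. Gfpt2 went from 0.131 and 0.164 FPKM to 3.82 and 3.69, and Cyp2f2 from 7.95 and 12.1 to 0.0219 and 0.110.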

How the data were processed

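Total RNA of the epidermis of 4 P0 pups was sequenced, and the authors generated FPKM per gene with a core-facility workflow on GRCm38. The tables the authors deposited also hold TPM and coverage (a signal, used as an alternative). Read counts are not analysed here. The most frequent ratio of coverage to FPKM, shared by 3122 to 3772 genes per library and taken to scale with aligned bases, was 6.09 and 6.27 in control and 5.84 and 5.93 in knockout libraries. Genes above 0.5 FPKM numbered 17761 and 17638, and 17384 and 16138.

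FPKM was summed over repeated rows of a gene ID. Biotypes came from GENCODE M21. Protein-coding genes above 0.5 FPKM in at least 1 library (13609 genes) entered limma 3.58.1 (R 4.3.3) on log2(FPKM + 1), with an intensity trend, both groups and no block, and Benjamini-Hochberg adjustment over all tested genes. Fold changes on this scale are understated for low genes. The code was tested on simulated data.

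Keratins were compared by 75-base stretches of GENCODE M21 transcripts, and sequences were read from GRCm38. The members and gene lists were chosen with earlier results of these data known. Named genes are the members, Skiv2l, the wound-associated keratins, cluster neighbours, the 3 genes most like Krt14 and Krt77, and up to 5 genes per list by size of change. Casp14, Trp63, Col17a1, Klf4, Grhl1 and Gm11940 were named after their values were seen. Alternatives covered pseudocount, filter, scaling, TPM, coverage, the trend, a replicate block and each library left out.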

Additional observations from a re-analysis of the deposited data

How the results depend on the processing

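None of the causes of these changes was tested. Of all tested genes, 1223 were called higher and 3455 lower (limma); without a filter on low values these were 475 and 927, with median scaling 1894 and 1623, with quantile normalization 1683 and 1917, and with at least a 2-fold change 421 and 480. Leaving out each library in turn gave 497 to 1146 higher and 805 to 3135 lower. The 3 members called higher became 0 without a filter (2 at an unadjusted p under 0.05) and 1 with at least a 2-fold change, and 1 to 3 without each library. The 4 called lower became 1 without a filter, 2 with median scaling, 2 with coverage in place of FPKM, 2 with at least a 2-fold change, and 2 to 3 without each library, and 6 on TPM, 5 under quantile normalization and 5 with the replicate block. The coverage and 2-fold alternatives were chosen after seeing the data. Krt14, without a filter, had an adjusted p of 0.460. The log2 fold change of Krt5 was 0.0011 with median scaling, and that of Krt1 was 0 under quantile normalization. The log2 change of the basal sum (1.12) was 1.07 on TPM and 1.33 with median scaling, and 1.10 to 1.14 without each library. That of the suprabasal sum (-0.47) was -0.25 with median scaling and -0.61 to -0.32 without each library. The log2 change of the Krt2 to Krt1 ratio (0.41) lay between -0.68 and 1.51 without each library. With the replicate number as a block, 1264 genes were called higher and 3393 lower, and Krt10 alone among the members changed its call. The numbers mark different animals, and the deviations of libraries with the same number correlated at -0.077. With 2 pups a group, small differences such as that of Krt5 could not be resolved.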

Other observations

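Among the genes outside the protein-coding set that overlap a member, Mir1941, within Krt80, was at 3.26 and 1.92 FPKM in control pups against 3.22 and 1.89 in knockout pups, which overlapped. Gm44323, a microRNA gene within Krt5, was listed at 0 in all 4 libraries.

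Keratins of the class hair, root sheath and other changed in both directions. Krt75, a keratin of the companion layer of the hair follicle, went from 0.903 and 2.02 FPKM to 16.8 and 10.8 (log2 fold change 2.60, limma adjusted p = 0.00166), and Krt84 from 1.01 and 0.579 to 7.88 and 6.29 (2.17, adjusted p = 0.000674). Krt33b (-1.39) and Krt86 (-1.34), keratins of the hair shaft, fell. All 4 genes were under 20 FPKM in each library.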
